A study of Mus musculus with 4 samples.

Results

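Transcripts of the enzymes that make fatty acids and triglycerides were compared between risperidone-treated and control 3T3-L1 cells, 35 genes chosen by symbol from the 16051 genes of the deposited table. They were set out by step, with 6 genes of de novo synthesis, 12 of elongation and desaturation, 4 of fatty acid activation, 10 of glycerolipid assembly and 3 transcription factors. De novo synthesis turns citrate-derived acetyl-CoA into malonyl-CoA and then palmitate. Elongases and desaturases of the endoplasmic reticulum lengthen the chain and place double bonds, acyl-CoA synthetases activate free fatty acids, and acyltransferases and phosphatases join the activated chains to glycerol 3-phosphate up to triglyceride. Adipocytes store energy as triglyceride, and SREBP-1 and the ChREBP-MLX pair are transcription factors known to drive many of these genes.

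3T3-L1 is an established fibroblast-like line from mouse embryo, strain NIH SWISS per the labels, that can be differentiated into adipocytes. Per the methods of the study, the cells had been differentiated with a hormone mix and were then exposed for 48 h to 100 µM risperidone, an antipsychotic, or to the vehicle DMSO, whereas the labels call the control "untreat". Each treatment had 2 libraries, each of RNA pooled from 3 cultures of this single line, so p-values measure the spread between pooled libraries and not between single cultures. The comparison asks which transcripts of lipid synthesis differed after the drug.

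The 4 libraries held 15883712 to 16374119 counts, and a count of 0 allowed up to 3 counts, or 0.183 to 0.189 CPM, for counting error only. Of 13 adipocyte markers, only Fabp4, Pparg, Lipe, Pnpla2, Lpl and Cd36 reached a mean of 1 FPKM, while Adipoq, Plin1, Cidec, Lep, Cebpa, Retn and Cfd had at most 14 counts in any library, which goes against the labelled cell type "adipocytes". The summed TMM-scaled FPKM of the adipocyte list was 428 and 481 in the control libraries and 344 and 351 in the risperidone libraries, and that of 8 preadipocyte or fibroblast markers was 571 and 563 against 980 and 939. Lpl and Fabp4 made up most of the adipocyte sum. Lpl was at 227 and 242 in control and 199 and 196 in risperidone libraries, and Fabp4 at 126 and 163 against 61.8 and 73.1. Col1a1 made up most of the preadipocyte or fibroblast sum, at 368 and 356 in control and 742 and 693 in risperidone libraries, while Col3a1 was at 102 and 105 against 51.2 and 55.2. Risperidone replicate 2 stood apart, since its 12 kidney markers summed to 208 TMM-scaled FPKM against 2.10 to 3.18 in the other libraries, and its 6 liver markers to 11.3 against 0.042 to 0.204. Retina markers, listed because the extraction label names retinas, summed to 0.601 to 1.19 with none of 5 tested. Among 4 macrophage markers Cd68 alone was tested and was higher (log2 fold change 1.19), with Ptprc at no more than 3 counts. The part of these cell types in the results below was not tested, and in bulk RNA fewer cells of a type and less RNA per cell cannot be told apart. Values without risperidone replicate 2 stand where a call changes with it.

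Of the 35 genes, 32 had a mean of at least 1 FPKM and were tested, and 11 were higher and 10 lower with risperidone (edgeR's quasi-likelihood test, two-sided, Benjamini-Hochberg adjusted p under 0.05 over 10243 genes). These are 34.4% and 31.3% of those tested, near the 32.1% higher and 32.2% lower over all genes tested, so neither share sets the synthesis genes apart. The median log2 fold change, risperidone over control, was 0.06 for the synthesis genes and 0.00044 for all genes. Without risperidone replicate 2 the counts were 12 higher and 11 lower. On the log2(TPM + 1) scale with limma, where the median of all genes moved to -0.22, 8 were higher and 16 lower. By step, that scale gave 3 higher in elongation and desaturation, 1 higher in activation and 5 lower in glycerolipid assembly, where the count test gave 5, 2 and 3, and 2 lower in de novo synthesis, where it gave 0. The direction of the small sums over a step or family given below also depends on the scaling, and the sums of the deposited TPM stand beside them. With about as many genes higher as lower over the whole table, a step or family that holds both is no feature particular to these genes, and the description below gives each family's values without setting it apart.

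**Figure D1:**
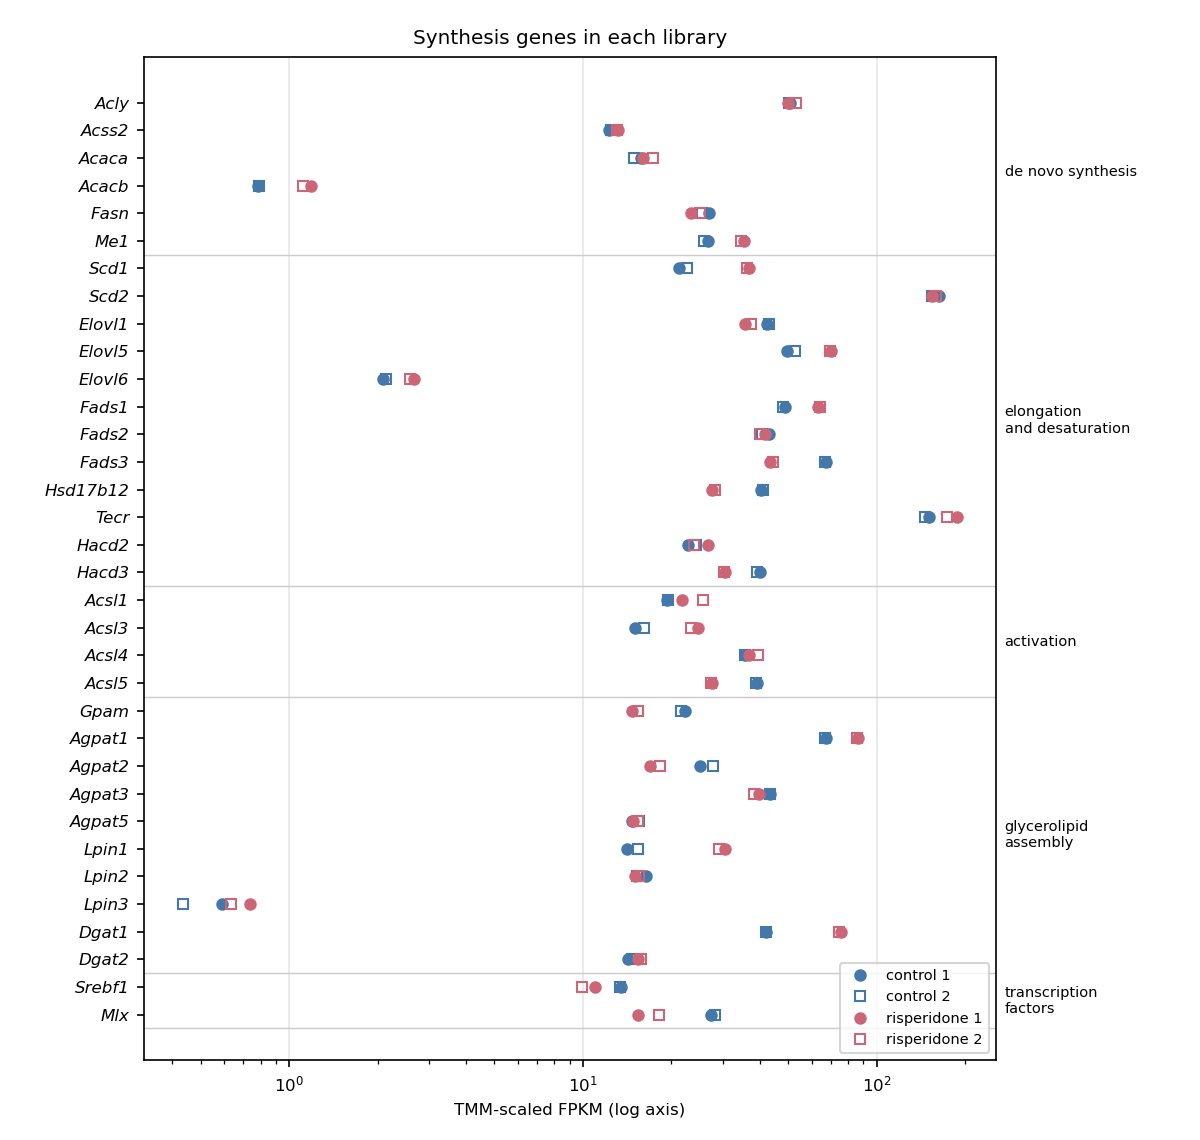
TMM-scaled FPKM (deposited FPKM divided by each library's TMM factor) on a log axis for 34 of the 35 genes, with filled circles for replicate 1, open squares for replicate 2, blue for control and red for risperidone. Mlxipl is left out because 3 libraries are at 0. Scd2 and Tecr have the highest levels, and the red and blue points lie apart for genes such as Lpin1, Dgat1 and Mlx.

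Levels per library are given as TMM-scaled FPKM, a level per gene length, and fold and percent changes of single genes, with their standard error, come from the count test, so they can differ somewhat from the ratio of the levels. Of the 5 tested genes of de novo synthesis 1 was higher and none lower. Me1, the cytosolic malic enzyme that supplies NADPH, was at 26.7 and 25.8 in control and 35.3 and 34.4 in risperidone libraries. Both risperidone values lay above both control values, a log2 fold change of 0.41 ± 0.052 (adjusted p = 4.9e-05). Acly, which splits citrate to acetyl-CoA, was at 50.4 and 50.2 in control and 49.9 and 53.3 in risperidone libraries. These values overlapped, with a log2 fold change of 0.038 ± 0.049 (adjusted p = 0.518).

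Fasn, the synthase that builds palmitate, was at 26.9 and 25.5 in control and 23.2 and 25.0 in risperidone libraries. The groups did not overlap, but the log2 fold change of -0.12 ± 0.053 missed the threshold (adjusted p = 0.0703). It was lower and past the threshold without risperidone replicate 2 (-0.17, adjusted p = 0.00962), among genes averaging 5 FPKM or more (-0.14, adjusted p = 0.0301), with library size as the only scaling (-0.21, adjusted p = 0.00573) and with limma on FPKM and TPM (adjusted p = 0.0203 with a pseudocount of 1, 0.0202 with 0.1, and 0.00224 on TPM). The median of all genes was itself lower in some of these fits. It was -0.093 with library size only, -0.084 and -0.092 with limma on FPKM, and -0.22 on TPM. Less that median, Fasn was at -0.118, -0.121, -0.120 and -0.125 in the same order. These are near the -0.118 of the reported fit, where Fasn was not called. With offsets for gene length the sign for Fasn turned, to 0.04 (adjusted p = 0.331). In the reported edgeR fit, Acaca, the cytosolic acetyl-CoA carboxylase that makes malonyl-CoA, had a log2 fold change of 0.12 (adjusted p = 0.0692). Acss2, which makes acetyl-CoA from acetate, was at 0.09 there (adjusted p = 0.211). With offsets for gene length Acaca was at 0.26 and past the threshold (edgeR adjusted p = 0.000147). Acaca was past the threshold without risperidone replicate 1 (0.18, adjusted p = 0.00929) and at 0.06 without risperidone replicate 2. Acacb, the carboxylase isoform tied to mitochondria, had a mean under 1 FPKM and was not tested. Its counts were 108 and 107 in control and 152 and 143 in risperidone libraries, both higher with the drug, and with no filter on low values its log2 fold change was 0.55 ± 0.11 (edgeR, adjusted p = 0.012). Summed over the 6 genes, de novo synthesis was at 133 and 130 in control and 139 and 144 in risperidone libraries, but the deposited TPM summed to 284 and 275 against 245 and 267, the other direction.

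In elongation and desaturation, 5 of 12 genes were higher and 4 lower, and members of a desaturase family had different values. Scd1 and Scd2 place the first double bond in saturated chains and lie in 1 gene cluster on chromosome 19, with Scd4 between them (chr19:44394450-44407709 and chr19:44293676-44306864, GRCm38.p6). Scd1 was at 21.2 and 22.7 in control and 36.8 and 36.0 in risperidone libraries. It rose 1.66-fold with no overlap (log2 fold change 0.73 ± 0.05, adjusted p = 5.02e-07 by edgeR). Scd2, the more abundant of the pair, was at 162 and 153 against 154 and 159. These overlapped (log2 fold change -0.0089 ± 0.051, adjusted p = 0.889). The Scd1 share of the summed pair thus went from 11.5% and 12.9% to 19.3% and 18.4%, while the sum was 180 in control and 193 in risperidone, 7.43% more, and 383 against 349 on the TPM scale, which is lower.

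The Fads genes are also clustered on chromosome 19, with Fads3 at chr19:10040855-10060113, Fads2 at chr19:10062765-10101503 and Fads1 at chr19:10182877-10196874. Fads1 and Fads2 desaturate polyunsaturated chains, and Fads3 is known to act on sphingoid bases. Fads3 was at 67.2 and 66.6 in control and 43.1 and 44.3 in risperidone libraries. It fell in both risperidone libraries below both controls, 1.53-fold lower (log2 fold change -0.61 ± 0.046, adjusted p = 9.89e-07 by edgeR). Fads1 rose by 32% (log2 fold change 0.40, adjusted p = 1.8e-05), and Fads2 had a log2 fold change of -0.029 (adjusted p = 0.714). So the FPKM ratio of Fads1 to Fads3 was 0.725 and 0.722 in the control libraries and 1.47 and 1.45 in the risperidone libraries, with Fads3 leading before and Fads1 after. With 2 libraries against 2, an exact permutation test of such a ratio cannot go below p = 0.333 two-sided, so ratios are given as values.

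Among the elongases, which add carbons to the chain, 1 gene was lower and the other 2 higher. Elovl5, which extends polyunsaturated chains, rose by 36.7%, and Elovl1, which extends saturated very long chains, was 14.3% lower in the count fit (edgeR adjusted p = 1.25e-05 and 0.00878). Elovl6, which takes palmitate to stearate, was the least abundant of these 3 at 2.10 and 2.15 in control and 2.66 and 2.58 in risperidone libraries. Its call was the least firm of the family (log2 fold change 0.31 ± 0.11, adjusted p = 0.0337 by edgeR). The call was lost in DESeq2 (adjusted p = 0.141) and with library size as the only scaling (0.21, edgeR adjusted p = 0.119). With limma it was lost on log2(FPKM + 1) (0.15, adjusted p = 0.219), log2(FPKM + 0.1) (0.20, adjusted p = 0.233) and log2(TPM + 1) (0.06, adjusted p = 0.712). It was also lost without control replicate 1, control replicate 2 or risperidone replicate 1, at log2 fold changes of 0.29, 0.32 and 0.29. Cdc20, which overlaps Elovl1 in the annotation, had 20 to 45 counts per library and was higher (log2 fold change 1.02), and whether reads were counted by strand is not given in the sources used here.

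The remaining steps of the elongation cycle reduce and dehydrate the extended chain. Tecr, the enoyl-CoA reductase that closes the cycle, was at 151 and 146 in control and 188 and 173 in risperidone libraries. It was 23% higher with no overlap (log2 fold change 0.30 ± 0.051, adjusted p = 0.000408 by edgeR), and its log2 fold change was 0.04 on the TPM scale (limma adjusted p = 0.458). Hsd17b12, the ketoacyl-CoA reductase of the cycle, was at 40.5 and 40.9 against 27.6 and 28.1. It fell 1.46-fold with no overlap (log2 fold change -0.54 ± 0.062, adjusted p = 2.26e-05). Of the hydroxyacyl-CoA dehydratases Hacd3 was 22.8% lower (adjusted p = 8.27e-05), and Hacd2 had a log2 fold change of 0.10 (adjusted p = 0.197), which was 0.18 and past the threshold without risperidone replicate 2 (adjusted p = 0.016). The Tecr to Hsd17b12 ratio, 2 enzymes of 1 cycle, was 3.72 and 3.58 in control and 6.81 and 6.14 in risperidone libraries.

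**Figure D2:**
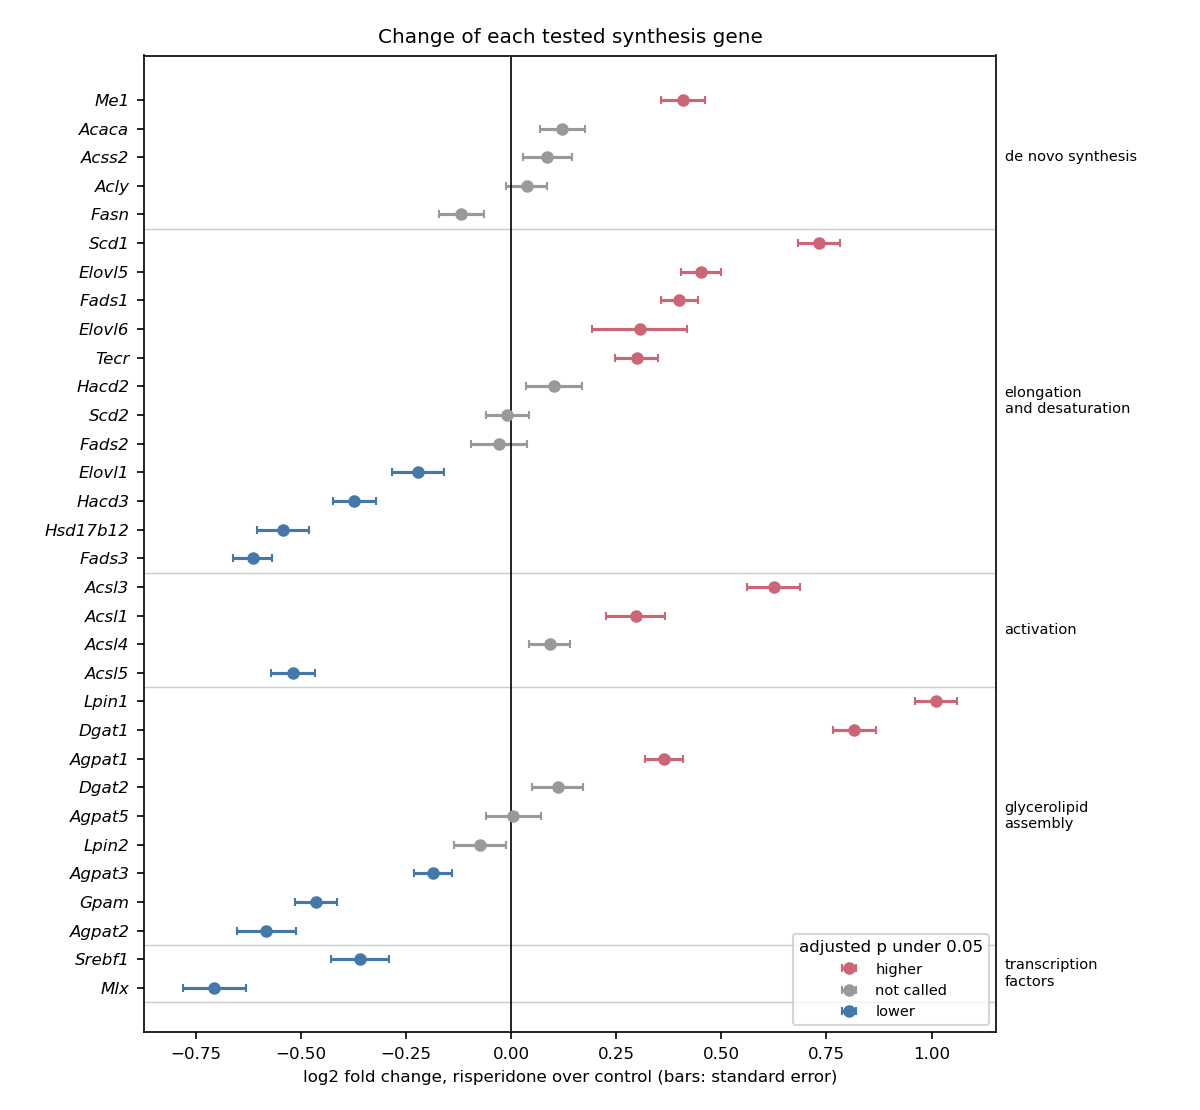
Log2 fold change of the 32 tested genes, risperidone over control, ordered by size within each step, with bars for the standard error of the edgeR fit. Red marks genes higher, blue genes lower and grey genes not past the threshold, and every step except de novo synthesis and the transcription factors holds all 3 kinds.

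In activation, 2 of the 4 Acsl genes were higher, 1 lower and 1 not past the threshold. These acyl-CoA synthetases attach coenzyme A to long-chain fatty acids, Acsl3 being known on the endoplasmic reticulum and lipid droplets, and Acsl4 for its preference for arachidonic acid. Acsl3 was at 15.1 and 16.1 in control and 24.5 and 23.3 in risperidone libraries. It rose 1.54-fold with no overlap (log2 fold change 0.62 ± 0.063, adjusted p = 9.2e-06 by edgeR). Acsl3 was the only one of the 35 genes with counts that were not whole, and it overlaps Utp14b, which had 21.38 to 38.65 counts per library. Acsl5 was at 39.0 and 38.7 in control and 27.6 and 27.3 in risperidone libraries. It fell 1.43-fold with no overlap (log2 fold change -0.52 ± 0.052, adjusted p = 8.16e-06).

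Acsl1, a main form in fat, was at 19.3 and 19.5 in control and 21.7 and 25.6 in risperidone libraries. Both risperidone values were higher, the second most so, with a log2 fold change of 0.30 ± 0.07 (adjusted p = 0.00325 by edgeR). The second is the library with kidney markers, and without it the log2 fold change was 0.20 (adjusted p = 0.00726). On log2(FPKM + 1) with limma it was 0.18 and missed the threshold (adjusted p = 0.0959). The deposited TPM of Acsl1 overlapped, at 41.2 and 41.4 in control and 38.2 and 47.4 in risperidone libraries. Acsl4 was at 35.7 and 35.6 against 36.8 and 39.3, which did not overlap but missed the threshold (log2 fold change 0.09 ± 0.05, adjusted p = 0.126). Its log2 fold change was 0.14 and past the threshold without risperidone replicate 1 (adjusted p = 0.0217), and 0.04 without risperidone replicate 2. The 4 genes summed to 109 and 110 in control and to 111 and 116 in risperidone libraries, 3.16% more in the mean, and on the TPM scale to 233 and 234 against 195 and 214, which is lower. The shares of each gene within a library do not depend on the scaling of libraries. Acsl5 led the family in control with 35.8% and 35.2% and stood at 25.0% and 23.6% in risperidone libraries, where Acsl4 led with 33.3% and 34.0%. The ratio of Acsl3 to Acsl5 went from 0.386 and 0.416 to 0.890 and 0.855.

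**Figure D3:**
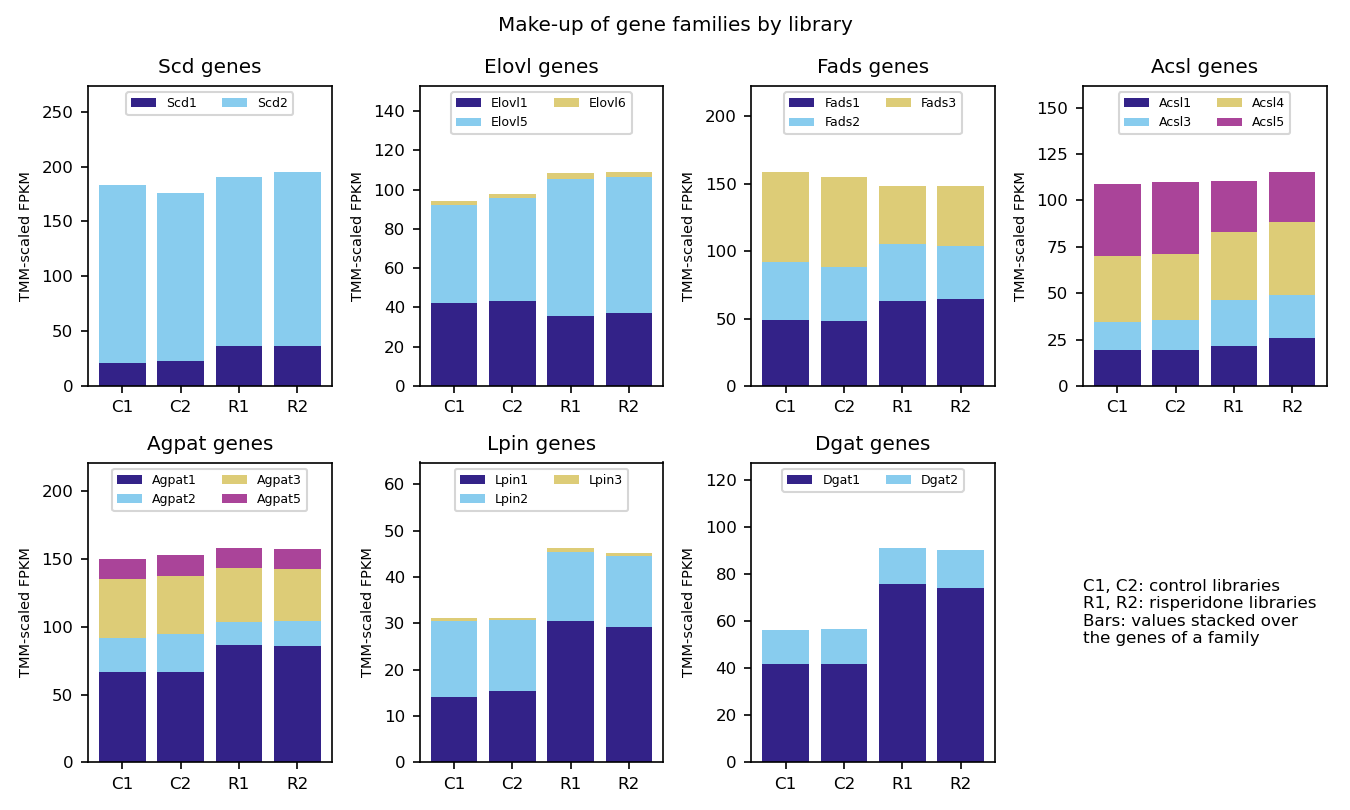
TMM-scaled FPKM stacked by gene for the genes of 7 families that are among the 35, in each library (C1 and C2 control, R1 and R2 risperidone). On this scale the Scd, Acsl and Agpat totals are under 10% higher with risperidone, and on the TPM scale they are lower, while the Lpin and Dgat totals are higher in both risperidone libraries on both scales.

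The promoter sequences of Acsl3 and Acsl5 are shown as a pair of 1 family that moved in opposite directions. They are the 250 bases before 1 start of each gene in the RefSeq table on GRCm38.p6, both on the plus strand, 5′ to 3′, at chr1:78657575-78657824 and chr19:55253119-55253368. The Acsl3 window ends where the annotated gene begins, whereas the Acsl5 window lies inside the annotated gene, before an internal start. Capitals mark matches on either strand to 3 motifs searched, the SREBP site TCACNCCAC, the E-box CACGTG and the NF-Y box CCAAT.
Acsl3: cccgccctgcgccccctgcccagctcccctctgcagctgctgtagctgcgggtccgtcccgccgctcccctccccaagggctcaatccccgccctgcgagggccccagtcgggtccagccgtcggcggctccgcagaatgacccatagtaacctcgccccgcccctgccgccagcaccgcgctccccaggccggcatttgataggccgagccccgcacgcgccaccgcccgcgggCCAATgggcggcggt
Acsl5: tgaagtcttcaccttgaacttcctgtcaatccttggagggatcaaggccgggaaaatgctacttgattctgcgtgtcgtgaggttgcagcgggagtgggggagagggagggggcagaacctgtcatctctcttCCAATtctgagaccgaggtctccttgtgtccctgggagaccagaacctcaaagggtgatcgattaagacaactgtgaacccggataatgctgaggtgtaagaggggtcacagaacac
Each holds 1 NF-Y box and neither holds the other motifs, and their GC content is 75.6% and 52.8%.

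In glycerolipid assembly 3 of 9 tested genes were higher and 3 lower, and its Lpin1 and Dgat1 had the largest changes of the tested synthesis genes. Gpam, the mitochondrial enzyme of the first acylation of glycerol 3-phosphate, was at 22.3 and 21.5 in control and 14.7 and 15.4 in risperidone libraries, 1.38-fold lower in the count fit (log2 fold change -0.46 ± 0.05, adjusted p = 1.42e-05 by edgeR). For the second acylation, by the lysophosphatidic acid acyltransferases, Agpat1 was at 67.0 and 66.8 in control and 86.5 and 85.8 in risperidone libraries. It rose 1.29-fold with no overlap (log2 fold change 0.36 ± 0.045, adjusted p = 3.86e-05). Agpat2, whose loss causes congenital lipodystrophy in humans, was at 25.0 and 27.6 against 16.9 and 18.3. It was 1.50-fold lower with no overlap (log2 fold change -0.58 ± 0.07, adjusted p = 3.04e-05). Agpat3 was 12.0% lower (adjusted p = 0.00407, and 0.0525 without control replicate 1), and Agpat5 had a log2 fold change of 0.0049 (adjusted p = 0.953). These 4 genes summed to 152 in control and 158 in risperidone, and on the TPM scale to 323 and 286, and the Agpat1 share of them went from 44.6% and 43.6% to 54.7% and 54.4%. Agpat4, which is not among the 35 genes, was at 57.5 and 62.7 against 56.8 and 57.9 and is not in this sum.

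The lipins remove the phosphate from phosphatidic acid, which yields diacylglycerol, and lipin-1 is also a transcriptional coactivator. Lpin1 (NCBI Gene 14245, chr12:16535669-16653903, GRCm38.p6) was at 14.1 and 15.4 in control and 30.5 and 29.1 in risperidone libraries. It rose 2.01-fold with no overlap, the largest change of the 32 genes and the 1 gene to reach a log2 fold change of 1 in either direction (1.01 ± 0.051, adjusted p = 7.79e-08 by edgeR). It was 0.98 to 1.05 with each library left out in turn. Lpin2 had a log2 fold change of -0.07 (adjusted p = 0.317), at 16.4 and 15.3 against 15.0 and 15.5, so Lpin1 was about level with Lpin2 in control, with ratios of 0.858 and 1.01, and above it with risperidone, with ratios of 2.03 and 1.89. Lpin3 had 31, 24, 38 and 32 counts and was not tested. The lipin total was 31.1 in control and 45.7 in risperidone, 47.0% more, and 24.8% more on the TPM scale.

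The last step, from diacylglycerol to triglyceride, is done by either of the unrelated enzymes Dgat1 and Dgat2. Dgat1 (NCBI Gene 13350, chr15:76502012-76512021) was at 42.0 and 41.9 in control and 75.7 and 74.4 in risperidone libraries. It rose 1.76-fold with no overlap (log2 fold change 0.82 ± 0.051, adjusted p = 2.86e-07 by edgeR). Dgat2 was at 14.2 and 14.6 against 15.4 and 15.7, without overlap but short of the threshold (log2 fold change 0.11 ± 0.06, adjusted p = 0.127). Dgat1 was thus the more abundant in every library, at 2.94 and 2.86 times the Dgat2 FPKM in control and 4.91 and 4.72 times in risperidone libraries. The 10 genes of glycerolipid assembly among the 35 summed to 260 and 262 in control and 310.0 and 309 in risperidone libraries, but their deposited TPM overlapped, at 554 and 557 against 547 and 572. The sum over all 35 genes was 6.29% higher on the TMM scale and fell by 9.77% on the TPM scale, so no direction is given for either total.

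**Figure D4:**
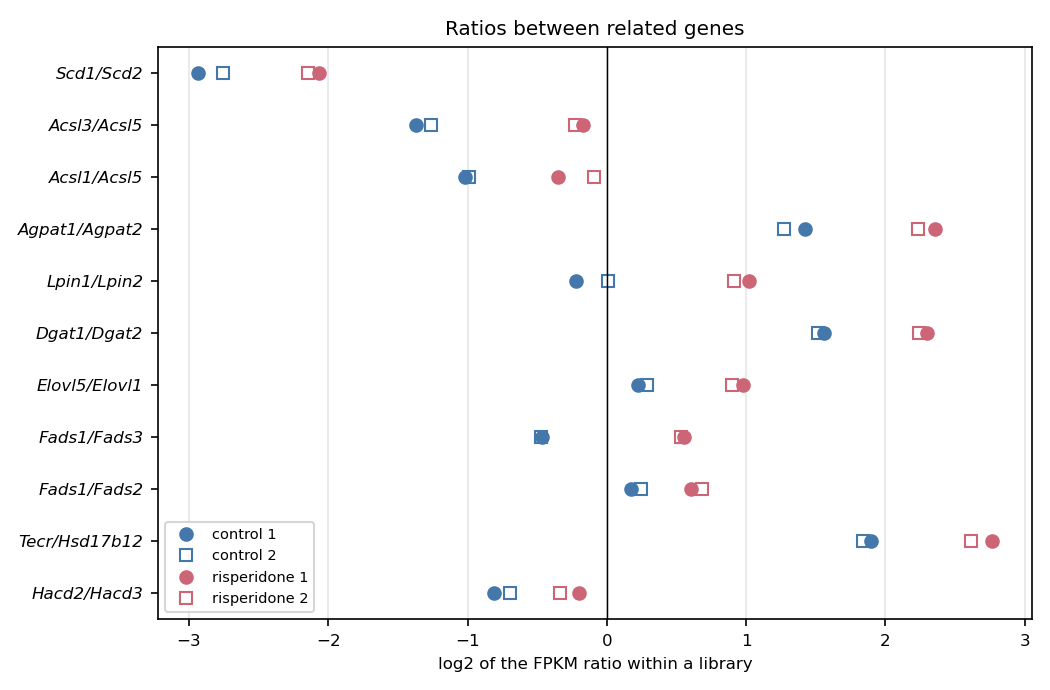
Log2 of the FPKM ratio of related genes within each library, for 11 ratios (blue control, red risperidone, circles replicate 1, squares replicate 2). In each ratio shown both risperidone libraries lie to the right of both control libraries, and Fads1/Fads3 crosses from below to above 0. The pairs and the order within each were chosen with the changes known, which fixes the direction, and Acaca/Acacb, not drawn, was lower with risperidone (mean ratio 19.5 in control and 14.5 in risperidone libraries).

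The transcription factors were lower where they were measured. Mlx, the partner that ChREBP needs to bind DNA, was at 27.2 and 28.1 in control and 15.4 and 18.1 in risperidone libraries. It fell 1.63-fold with no overlap, the largest decrease of the 32 genes (log2 fold change -0.71 ± 0.075, adjusted p = 1.26e-05 by edgeR). Psmc3ip, which overlaps Mlx, had 147 to 201 counts and a log2 fold change of -0.35. Srebf1, which encodes SREBP-1, was at 13.5 and 13.4 against 11.0 and 9.91. It was also lower with no overlap (log2 fold change -0.36 ± 0.069, adjusted p = 0.000858), and the table does not separate its isoforms. Rai1, which overlaps Srebf1, had 892 to 1144 counts per library, more than the 647 to 953 of Srebf1, and a log2 fold change of -0.13 (adjusted p = 0.128). Mlxipl, which encodes ChREBP, had no counts in 3 libraries and 21 in risperidone replicate 2, the library with kidney markers, and was not tested. With no filter on low values its log2 fold change was 6.46 ± 2.85 (edgeR adjusted p = 0.162), which rests on that library alone.

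The promoter sequence of Mlx is shown because it holds matches to 2 of the motifs, and that of Lpin1 because it had the largest change. They lie before 1 RefSeq start of each gene, at chr11:101087040-101087289, plus strand, and chr12:16610967-16611216, minus strand, with capitals as above. Both windows lie inside the annotated gene, before an internal start, and not upstream of its 5′ end.
Mlx: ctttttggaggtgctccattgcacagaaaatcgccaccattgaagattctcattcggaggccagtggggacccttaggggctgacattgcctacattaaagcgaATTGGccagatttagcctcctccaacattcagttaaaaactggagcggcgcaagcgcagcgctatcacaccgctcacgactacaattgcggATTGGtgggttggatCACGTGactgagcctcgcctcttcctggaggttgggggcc
Lpin1: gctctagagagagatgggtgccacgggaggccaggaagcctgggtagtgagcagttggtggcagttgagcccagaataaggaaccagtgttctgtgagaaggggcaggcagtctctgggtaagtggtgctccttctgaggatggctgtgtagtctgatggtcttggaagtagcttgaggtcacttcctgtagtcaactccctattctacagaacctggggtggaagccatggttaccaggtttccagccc
The Mlx window holds 1 E-box and 2 NF-Y boxes, and the Lpin1 window none of the 3 motifs. Promoters of 300 bases, 250 before and 50 after a start, matched 29 of the 35 genes by identifier, without Agpat5, Dgat1, Dgat2, Fads1, Scd1 and Scd2. The NF-Y box was present at 1 or more starts of 20 of these 29 genes (69.0%), of 41.1% of all 27025 genes and of 43.9% of the tested genes with a promoter. By call, it was in 6 of 8 higher, 8 of 10 lower and 4 of 8 genes not past the threshold. The E-box was in 6 of 29 (Elovl5, Hacd3, Lpin2, Lpin3, Mlx and Mlxipl) against 8.09% of all genes and 12.1% of tested genes, and the SREBP site in Acsl1 and Mlxipl, 2 of 29, against 1.44% and 1.30%. A match is a run of letters in this window and does not show a factor's binding.

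Genes around the pathway were counted from lists in the same fit. Of 11 tested other genes of fatty acid and glycerolipid synthesis, 3 were higher and 2 lower, and 3 and 3 without risperidone replicate 2, where Hacd1 was also lower (log2 fold change -0.44, adjusted p = 0.0241 by edgeR). Mid1ip1, which promotes the polymerization of acetyl-CoA carboxylase, rose (log2 fold change 0.67, adjusted p = 7.47e-06 by edgeR), as did Hacd4 (0.36, adjusted p = 0.0176), and Lclat1, an acyltransferase, fell by 0.54 on the log2 scale (adjusted p = 3.41e-05). Gpat4, another enzyme of the first acylation, was lower (log2 fold change -0.23, adjusted p = 0.00103). On log2(TPM + 1) with limma 1 of these 11 was higher and 5 were lower. Of the 6 genes of SREBP processing 3 were higher and 2 lower, and 0 and 3 on log2(TPM + 1), where the rise of Insig1 and Srebf2 was not called. Insig1, which holds the SREBP complex in the endoplasmic reticulum, and Srebf2, which encodes SREBP-2, rose by log2 fold changes of 0.45 and 0.34 (adjusted p = 0.00122 and 0.000602), and Mbtps1, the site-1 protease, fell by 0.35 (adjusted p = 5.79e-05).

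The supply of carbon, NADPH and glycerol 3-phosphate was mixed as well. Of 15 tested genes of citrate and NADPH supply 7 were higher and 6 lower. On log2(TPM + 1) with limma 3 were higher and 7 lower, and without risperidone replicate 2 there were 8 and 6, with Nadk also higher (log2 fold change 0.14, adjusted p = 0.0227 by edgeR). Idh1, the cytosolic NADP-dependent isocitrate dehydrogenase, fell from 424 and 416 to 142 and 155 TMM-scaled FPKM, a log2 fold change of -1.50 (adjusted p = 1.13e-08 by edgeR). Slc25a10, the dicarboxylate carrier, fell by 1.42 on the log2 scale (adjusted p = 1.37e-06), and Cs, citrate synthase, rose by 0.91 (adjusted p = 1.34e-07). G6pdx and Pgd, the NADPH-forming enzymes of the pentose phosphate pathway, were also lower (log2 fold changes -0.23 and -0.49, adjusted p = 0.00106 and 7.38e-06), whereas Me1 was higher. All 3 tested genes of glycerol 3-phosphate supply were higher, where 32.1% of all genes tested were. DESeq2 and limma each called 1 of these 3. Pck1 passed the filter only through risperidone replicate 2, at 8.59 FPKM there against 0.22 and 0 in control and 0.07 in risperidone replicate 1. Gk, glycerol kinase, rose by 1.21 (adjusted p = 4.12e-05) and by 0.96 without risperidone replicate 2 (adjusted p = 1.49e-05), and Gpd1l by 0.24 (adjusted p = 0.00513). Pck1 had 342 counts in risperidone replicate 2 and 9, 0 and 3 in the other libraries, and its log2 fold change of 5.32 became -0.48 (adjusted p = 0.784) without that library.

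Of the adipocyte markers 1 of 6 tested was higher and 3 were lower, and 0 and 3 on log2(TPM + 1) with limma. Lipe, hormone-sensitive lipase, and Fabp4, a fatty acid binding protein, fell by 1.12 and 1.09 on the log2 scale, and Lpl, lipoprotein lipase, by 0.24 (adjusted p = 1.35e-05, 1.64e-05 and 0.00154 by edgeR). Pnpla2, the triglyceride lipase of fat, rose by 0.23 (adjusted p = 0.00164), and Pparg, the nuclear receptor of adipogenesis, and Cd36, a fatty acid transporter, had log2 fold changes of 0.12 and 0.27 (adjusted p = 0.194 and 0.33). Of the preadipocyte or fibroblast markers 4 of 7 were higher and 2 lower. Dlk1, the preadipocyte factor, rose by 1.52 (adjusted p = 1.11e-08) and Thy1 by 1.05 (adjusted p = 9.2e-08). Ly6a rose by 1.20 (adjusted p = 0.0121), but by 0.53 with adjusted p = 0.182 without risperidone replicate 2. Col1a1, a collagen, rose by 0.99 (adjusted p = 1.06e-07), whereas Col3a1, another collagen, fell by 0.96 on the log2 scale (adjusted p = 1.34e-07) and Pdgfrb, a growth factor receptor, by 0.50 (adjusted p = 5.04e-05). Pdgfra had a log2 fold change of -0.033 (adjusted p = 0.62). Both marker lists thus held genes that rose and genes that fell, and their part in the changes of Scd1, Lpin1, Dgat1 and the others was not tested.

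**Figure D5:**
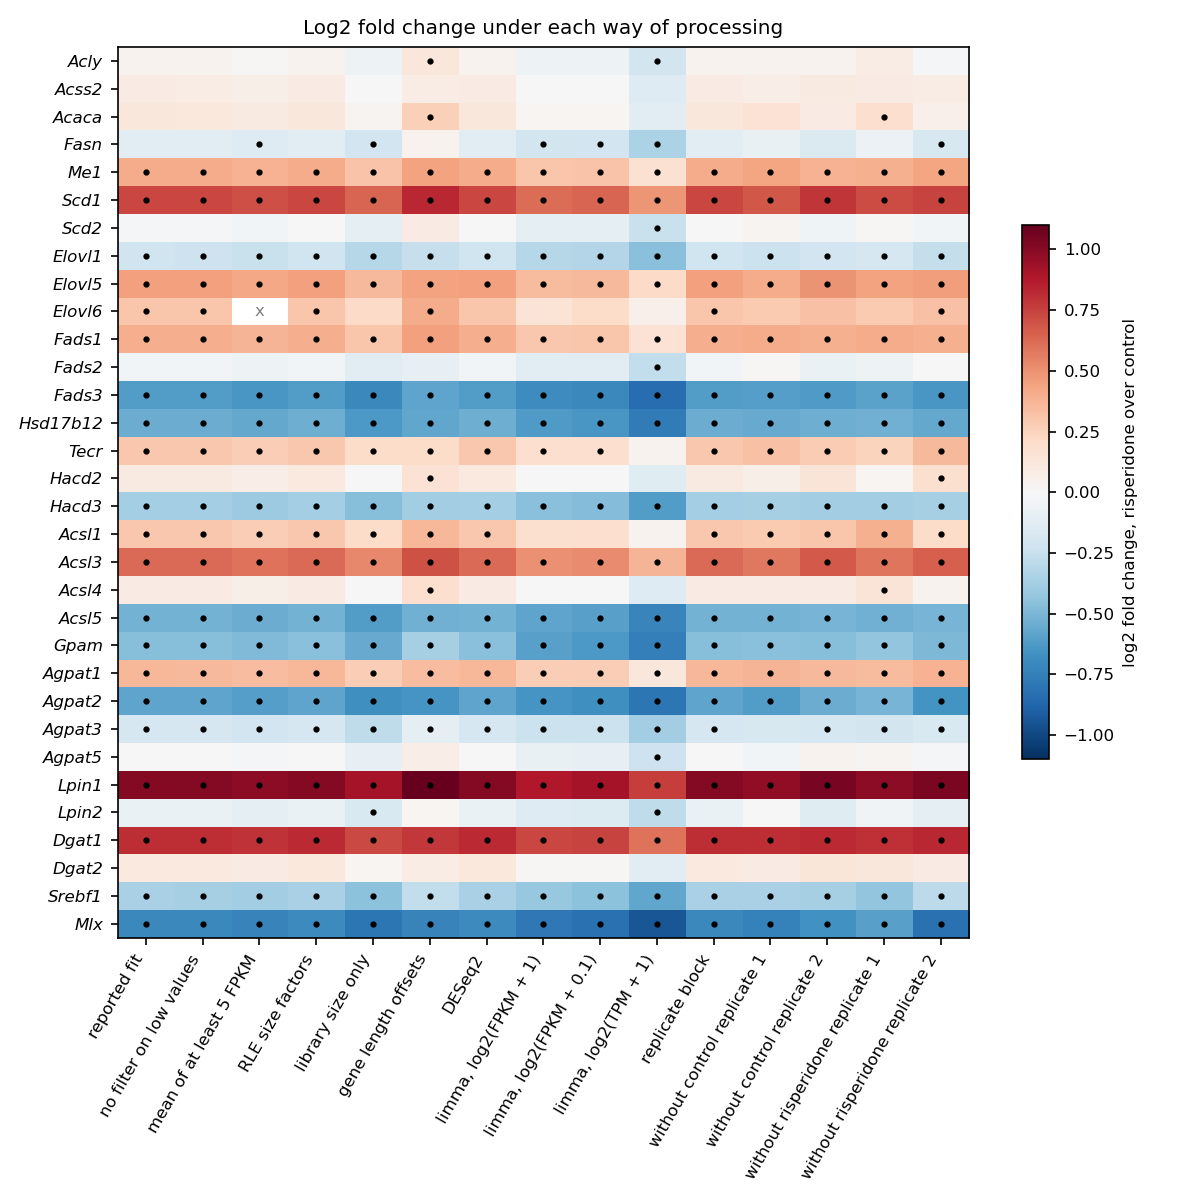
Log2 fold change of the 32 tested genes (colour, risperidone over control) under the reported fit and 14 other ways of processing, with a dot where the adjusted p was under 0.05 and x where a gene was not tested. The rows of Scd1, Lpin1, Dgat1, Fads3, Acsl5 and Mlx keep 1 colour and a dot throughout, and the TPM column is shifted toward lower values.

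Across those ways of processing, 17 of the 21 called genes kept their direction and their call, with Elovl6, Tecr, Acsl1 and Agpat3 as the exceptions.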

How the data were processed

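The data are mRNA sequencing (MGISEQ-2000) of 4 libraries of pooled RNA. The submitters' processing notes name Bowtie2, RSEM, DESeq2 and GRCm38.p6, with versions, annotation and strand not given in the sources used here. Expected counts, FPKM and TPM per gene are as deposited by the authors, with FPKM from their DC.TOM platform. The expected counts were then rounded and compared with edgeR 4.0.16 in R 4.3.3 by the quasi-likelihood F-test after TMM scaling, with Benjamini-Hochberg adjustment over 10243 genes averaging 1 FPKM or more. TMM factors were 1.03 and 1.03 for control and 0.963 and 0.973 for risperidone. A standard error is the size of the log2 fold change over the square root of F, and TMM-scaled FPKM is the deposited FPKM over the TMM factor. Depth was 15883712 to 16374119 counts per library, and the median chi-square per gene between replicates was 0.683 in control and 1.14 in risperidone.

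The 35 genes and the related lists were chosen with earlier results of these data known. Values per library are given for called genes whose log2 fold change was 0.5 or more in either direction, genes the paper names, the 2 most abundant of each step and the transcription factors, and counts for genes not tested. The levels of Gpam, Elovl6, Lpin2 and Dgat2, and Agpat4, Gpat4, G6pdx, Pgd, Hacd1, Nadk, Pnpla2, Pparg, Cd36, Col1a1, Col3a1, Pdgfra and Pdgfrb, were added after their values were seen. Of each related list, up to 3 called genes are named. Alternatives were no filter, a 5 FPKM filter, RLE factors, library size alone, gene length offsets, DESeq2 1.42.0, limma 3.58.1 on log2 FPKM (pseudocounts 1 and 0.1) and log2 TPM (pseudocount 1), a replicate block and each library left out. The sums of deposited TPM over families were added after the data were seen. The scripts were tested on simulated data. Positions and promoters are from RefSeq, GRCm38.p6.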

Additional observations from a re-analysis of the deposited data

How the results depend on the processing

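Where a log2 fold change of 1 in either direction was also required, 1 synthesis gene was higher and 0 lower, and 267 and 401 of all genes. On log2(TPM + 1) 16 synthesis genes were lower, and of all genes 1536 were higher and 5292 lower. The other alternatives gave 9 to 15 synthesis genes higher and 10 to 12 lower, and leaving out each library gave 10 to 12 and 9 to 11. The sign of the log2 fold change turned in genes close to 0 that the test had not called. With library size as the only scaling, Acly was at -0.0556, Acss2 at -0.0073, Acsl4 at -0.0015 and Agpat5 at -0.0885. With limma on log2(FPKM + 1) they were at -0.0575, -0.0067, -0.0022 and -0.0849, and on log2(FPKM + 0.1) at -0.0585, -0.0072, -0.0022 and -0.09. The median of all genes was itself lower in these fits, at -0.093 with library size only and -0.084 and -0.092 with limma. On the TPM scale, Acly was at -0.20, Acss2 at -0.15, Acaca at -0.12, Hacd2 at -0.14, Acsl4 at -0.14, Agpat5 at -0.23 and Dgat2 at -0.13, where the median of all genes was -0.22. With gene length offsets, Fasn was at 0.0429, Scd2 at 0.089 and Lpin2 at 0.024, and among genes averaging 5 FPKM or more Agpat5 was at -0.0197. With each library left out in turn, Acly ranged from -0.0107 to 0.0851, Scd2 from -0.0488 to 0.0322, Fads2 from -0.0715 to 0.0151 and Agpat5 from -0.0311 to 0.0415. The cause of these turns was not tested. Gene length offsets also called Acly (0.13), Acaca (0.26), Hacd2 (0.16) and Acsl4 (0.19). Acly was thus called higher with these offsets (edgeR adjusted p = 0.0156) but lower on log2(TPM + 1) (limma adjusted p = 0.0191). With the replicate number as a block, 11 synthesis genes were higher and 10 lower, and 3292 and 3321 of all genes. The deviations of the same-numbered libraries from their group means had a correlation of -0.10. With 2 libraries a treatment the second pair mirrors the first. This is therefore a single value and cannot decide whether the numbers pair the libraries. The crossed pairing, added after the data were seen, gave 12 and 11. With 2 pooled libraries a treatment, the spread between cultures is unknown, and with no filter Lpin3, at 24 to 38 counts, had a log2 fold change of 0.44 ± 0.27 (edgeR adjusted p = 0.275).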
